A study of Rattus norvegicus with 4 samples.

Results

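Upk1b and 6 further tetraspanins, Cd9, Cd63, Cd81, Cd82, Cd151 and Cd53, were followed in rat retinal neurospheres. The 7 genes were chosen by name from the array's annotation, and each was measured by 1 probe set that carries a single gene symbol, 7 probe sets of 31099 on the array and 7 genes of 14217 with a single symbol. They were chosen with the results of these arrays known: Upk1b had the largest difference between the conditions on the array. Their levels are therefore given as a description, with no p-value. How many of them passed in the fit across all probe sets is counted beside the share of all probe sets, and tests are read for genes outside the 7. Neurospheres are floating clusters of dividing cells grown from dissociated tissue. Here they came from Sprague Dawley rat retina of embryonic day 18, grown either with epidermal growth factor (EGF) plus endothelial cell conditioned medium, that is, medium in which cells of the blood vessel lining had grown, or with EGF alone. For each condition there were 2 arrays, given as biological replicates. Retinae of several embryos were pooled for a culture, another pool gave the replicates, and both conditions contained EGF.

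Tetraspanins are small proteins with several membrane-spanning segments. They gather integrins, growth factor receptors, proteases and one another into patches of the membrane, and their larger extracellular loop carries a conserved Cys-Cys-Gly motif. Upk1b, uroplakin 1b, is a tetraspanin best known from urothelium, the lining of the bladder, where it pairs with uroplakin 3 in the plaques of the apical membrane. Cd9, Cd63 and Cd81 are common on extracellular vesicles, Cd82 and Cd151 regulate adhesion, and Cd53 belongs mainly to leukocytes. In the retina, the tetraspanins peripherin 2 (Prph2) and Rom1 build the discs of photoreceptor outer segments.

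The annotated start regions of Upk1b, Cd63 and Cd53 are shown because each holds 1 match to a motif of a different transcription factor family, while their differences between the conditions run from the largest to the smallest of the 6 genes that were higher. RefSeq windows on GRCr8, from 250 bases before to 50 bases after the start, were found for 6 of the 7 genes (all but Cd82) and searched on both strands for 5 motifs, which were chosen after the windows had been seen. The capitals mark the match: in Upk1b the TEAD motif GGAATG, present as its reverse complement from base -178, in Cd63 the AP-1 motif TGANTCA from base -143, and in Cd53 the PU.1 motif GAGGAAGT, present as its reverse complement from base -46. The Upk1b window lies at chr11:75459131-75459430 on the plus strand, the Cd63 window at chr7:1921894-1922193 on the plus strand and the Cd53 window at chr2:197087847-197088146 on the minus strand.
Upk1b: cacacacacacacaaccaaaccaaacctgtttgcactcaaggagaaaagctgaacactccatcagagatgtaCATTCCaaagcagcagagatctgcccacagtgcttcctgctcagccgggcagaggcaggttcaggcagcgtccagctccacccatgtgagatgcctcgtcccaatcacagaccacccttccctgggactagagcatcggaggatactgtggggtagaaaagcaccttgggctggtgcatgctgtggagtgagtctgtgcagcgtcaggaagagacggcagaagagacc
Cd63: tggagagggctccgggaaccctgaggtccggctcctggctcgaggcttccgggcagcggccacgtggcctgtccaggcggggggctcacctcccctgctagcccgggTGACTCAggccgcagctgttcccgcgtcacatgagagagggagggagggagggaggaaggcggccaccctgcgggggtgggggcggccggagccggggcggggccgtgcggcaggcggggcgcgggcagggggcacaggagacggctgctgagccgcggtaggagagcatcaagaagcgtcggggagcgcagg
Cd53: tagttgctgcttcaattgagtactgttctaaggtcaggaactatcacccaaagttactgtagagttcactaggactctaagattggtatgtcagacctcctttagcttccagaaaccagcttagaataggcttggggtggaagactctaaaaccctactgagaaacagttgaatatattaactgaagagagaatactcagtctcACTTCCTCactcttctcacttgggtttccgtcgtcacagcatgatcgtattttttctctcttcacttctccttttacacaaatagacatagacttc
Of all 33469 windows of this length, 14.2% hold GGAATG, 7.33% TGANTCA and 2.42% GAGGAAGT. Each of these 3 motifs matched in 1 of the 6 windows. The Sp1 motif GGGCGG, found in 33.1% of all windows, occurred in Cd9 (3 matches), Cd63, Cd81 and Cd151 (2 matches each). The motif TATAAA, found in 14.2% of all windows, occurred in Cd81 alone of the 6, from base 6 after the start. None of the 5 motifs overlapped another in the 3 windows printed. A match is a stretch of letters and not a measured binding site.

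The values in the files are RMA (robust multi-array average) log2 levels, and they had not been equalised between arrays. The array medians were 6.84 and 6.56 log2 with conditioned medium and 6.03 and 6.25 log2 with EGF alone. The arrays were therefore quantile normalized, and each result was also computed on the deposited values and on median-centred arrays, where the median difference of the 21717 probe sets tested was 0.43 and -0.14 log2, against -0.01 log2 after quantile normalization. The words rose and fell are kept for genes with a limma adjusted p under 0.05 in the same direction under all 3 scalings. Across the tested probe sets, arrays of the same condition differed by an SD of 0.25 log2 (conditioned medium) and 0.28 log2 (EGF alone), and arrays of different conditions by 0.46 to 0.48 log2. For actin, the control probe set at the 3' end exceeded the one at the 5' end, a sign of RNA quality, by 1.59 and 1.43 log2 with conditioned medium and 1.89 and 2.03 log2 with EGF alone, so this excess moved with the condition in each comparison, and its part in the results was not tested. All 9 measured markers of retinal progenitors, Pax6 and Rax among them, lay above 4.77 log2, the 30th percentile of all mean levels, under which a probe set was called dim and not tested. Of 11 measured endothelial markers, Pecam1, Tek, Tie1 and Emcn lay below it. Of the other 7, the VEGF receptor Flt1 and the junction protein Esam rose, and Kdr, another VEGF receptor, was bright at 12.41 and 12.39 log2 with conditioned medium, against 11.95 and 12.03 log2 with EGF alone, after quantile normalization. Kdr passed on quantile normalized and deposited values but not with median-centred arrays. Flt1 averaged 3.82 log2 with EGF alone after quantile normalization, so it was tested only through its level with conditioned medium. The calls of Flt1 and Esam were lost without conditioned-medium replicate 1, and 1 of the 2 was lost with any other array left out.

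Upk1b separated the conditions more widely than any other of the 21717 probe sets tested. Its deposited level was 9.17 and 8.94 log2 with conditioned medium, against 4.53 and 4.35 log2 with EGF alone. Both arrays with conditioned medium were bright and both with EGF alone were close to the dim end of the array. After quantile normalization Upk1b averaged 8.88 ± 0.03 log2 with conditioned medium and 4.84 ± 0.39 log2 with EGF alone (SD, n = 2 each), a difference of 4.04 log2 or 16.4-fold. The 4 pairs of arrays from opposite conditions differed by 3.74 to 4.34 log2, or 13.3-fold to 20.2-fold. The deposited EGF values lay under 4.77 log2, the level for dim probe sets. That level was set on quantile normalized means, and on that scale the EGF values were 5.12 and 4.57 log2. They were close to it on either scale, so the direction is firmer than the fold.

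Cd9, which binds integrins and the membrane-bound form of heparin-binding EGF-like growth factor, had a deposited level of 11.51 and 11.26 log2 with conditioned medium, against 10.00 and 10.31 log2 with EGF alone. The groups did not overlap. Quantile normalized means were 11.23 ± 0.05 log2 with conditioned medium and 10.32 ± 0.12 log2 with EGF alone (SD, n = 2 each), a 1.88-fold difference. Cd151, the tetraspanin that associates most tightly with the laminin-binding integrins, had 10.62 and 10.40 log2 with conditioned medium, against 9.18 and 9.58 log2 with EGF alone, as deposited. It was higher in both arrays with conditioned medium, by 0.81 log2 or 1.75-fold after quantile normalization. Cd82, known as a suppressor of metastasis that restrains integrin and EGF receptor signalling, had 8.71 and 8.45 log2 with conditioned medium, against 7.25 and 7.31 log2 with EGF alone, as deposited. Its groups did not overlap either, and the quantile normalized difference was 0.89 log2 or 1.85-fold. Cd9, Cd151 and Cd82, set together here after their values were seen, differed by similar amounts, with opposite-array differences of 0.79 to 1.04 log2 for Cd9, 0.66 to 0.95 log2 for Cd151 and 0.82 to 0.96 log2 for Cd82.

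Cd63 and Cd81, which like Cd9 are common on vesicles, differed by less than Cd9 did. Cd63, a protein of late endosomes and lysosomes that also reaches the cell surface, had a deposited level of 12.58 and 12.38 log2 with conditioned medium, against 11.53 and 11.64 log2 with EGF alone. It was higher in both arrays with conditioned medium, by 0.58 log2 or 1.49-fold after quantile normalization, where same-condition arrays lay within 0.023 log2 of each other. Cd81, a partner of Cd9 on the cell surface, had 11.86 and 11.74 log2 with conditioned medium, against 11.36 and 11.65 log2 with EGF alone, as deposited. On that scale the Cd81 groups did not overlap, but after quantile normalization they did, at 11.63 ± 0.04 log2 with conditioned medium and 11.67 ± 0.11 log2 with EGF alone (SD, n = 2 each). The difference of Cd81 was 0.29 log2 as deposited, -0.04 log2 after quantile normalization and -0.28 log2 with median-centred arrays, so its direction depends on the scaling.

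Cd53, a tetraspanin of leukocytes and microglia, had a deposited level of 6.69 and 6.61 log2 with conditioned medium, against 4.31 and 4.87 log2 with EGF alone. It was dim to moderate with conditioned medium and near the level for dim probe sets with EGF alone. Quantile normalized means were 6.35 ± 0.15 log2 with conditioned medium and 4.998 ± 0.13 log2 with EGF alone (SD, n = 2 each), a difference of 1.35 log2 or 2.56-fold. Most tested markers of microglia and leukocytes moved with it. Of 15 measured, 10 were bright enough to be tested, and 7 of them rose (8.53% of all 11494 genes tested by their brightest probe set did), among them Fcer1g (1.08 ± 0.11 log2, SE) and Tyrobp (1.16 ± 0.17 log2, SE), adaptors of immune receptors. Of the 7, Ptprc and C1qc averaged 4.599 and 4.62 log2 with EGF alone after quantile normalization, under the level for dim probe sets. Both were tested only through their level with conditioned medium. Markers dim in both conditions left the count, so the filter favoured markers that were higher with conditioned medium. The summed linear level of the 15 markers was 1374 and 1438 with conditioned medium and 744.1 and 793.4 with EGF alone. Itgam, P2ry12, C1qb, Cd74 and the leukocyte tetraspanin Cd37 had means over the 4 arrays below the level for dim probe sets. After quantile normalization C1qb had 5.34 and 5.47 log2 with conditioned medium, against 4.08 and 4.03 log2 with EGF alone. The P2ry12 probe sets were higher by 0.77 and 1.06 log2 without overlap, while Itgam and Cd74 overlapped. Cd37 overlapped too, at 3.57 and 3.51 log2 with conditioned medium, against 3.71 and 3.52 log2 with EGF alone. The part of these cells in the level of Cd53 was not tested, and in bulk arrays more cells of a type and more RNA per cell cannot be told apart. Without conditioned-medium replicate 2, 1 microglia marker rose, without conditioned-medium replicate 1, 3 did, and without EGF replicate 2, 4 did.

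**Figure D1:**
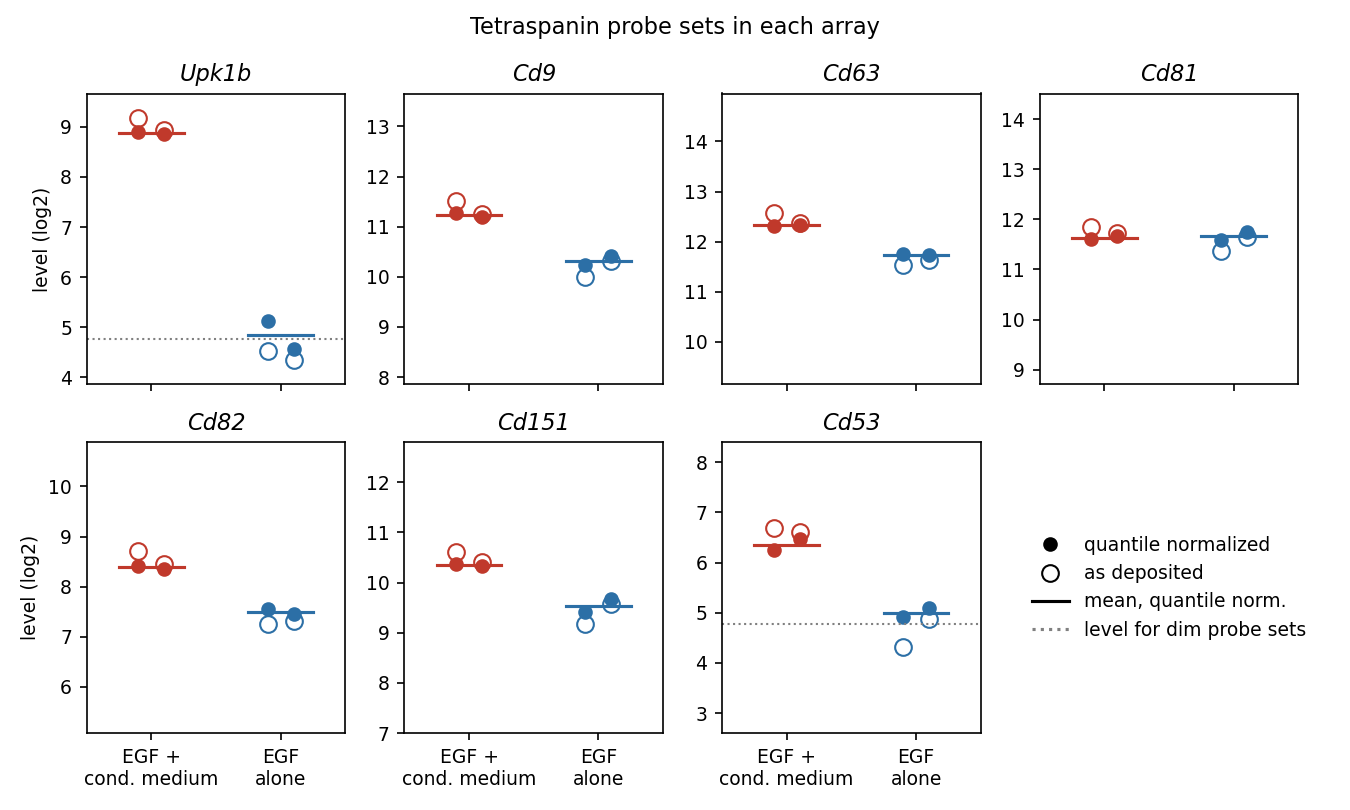
Level (log2) of the 7 tetraspanins in each array, with EGF plus conditioned medium on the left and EGF alone on the right of each panel. Filled points are quantile normalized values with their mean as a line, and open circles the deposited values. The dotted line is the 4.77 log2 level for dim probe sets, which was set on quantile normalized means. It falls within the panels of Upk1b and Cd53 only and lies below the range of the others. Every panel spans the same number of log2 units. Upk1b shows the widest gap between conditions and Cd81 overlaps after quantile normalization.

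Across the 7 genes the quantile normalized differences ran from -0.04 log2 (Cd81) to 4.04 log2 (Upk1b), with a median of 0.89 log2. The fit across all probe sets placed 6 of the 7, all but Cd81, past the threshold in the higher direction under all 3 scalings, where 7.27% of all tested probe sets stood. The same 6 did not overlap between the groups after quantile normalization and all 7 did not overlap as deposited, where 30.3% and 69.7% of tested probe sets were higher without overlap. Nothing is read from these counts, since the same contrast chose the genes. Ranked by the difference among the 21717 probe sets, Upk1b had rank 1, Cd53 rank 175, Cd9 rank 568, Cd82 rank 621, Cd151 rank 792, Cd63 rank 1713 and Cd81 rank 11452. Without conditioned-medium replicate 2, Cd53 and Cd63 did not pass, and Cd63 did not pass without EGF replicate 2 or without an intensity trend in the fit. Cd53 was too dim to be tested when the filter stood at the 50th percentile.

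**Figure D2:**
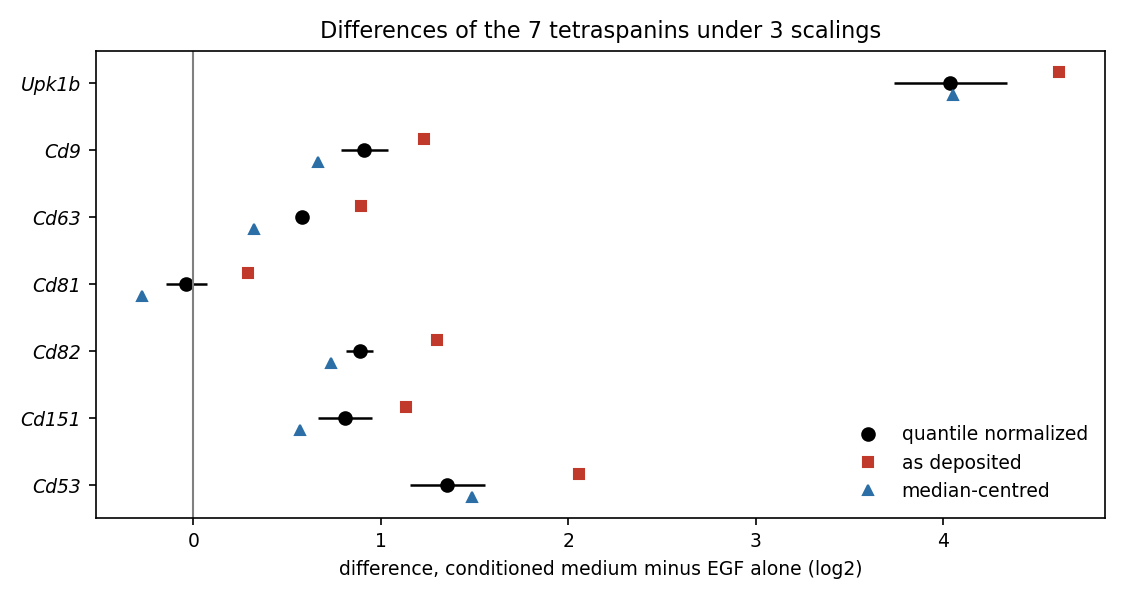
Difference between EGF plus conditioned medium and EGF alone (log2) for each of the 7 tetraspanins. Black points are quantile normalized means with a line spanning the 4 differences between single arrays of opposite conditions, red squares the deposited values and blue triangles median-centred arrays. The deposited differences lie furthest right, and Cd81 is the gene whose sign changes, from 0.29 log2 as deposited to -0.28 log2 with median-centred arrays.

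Genes with a pattern like Upk1b were sought by the Euclidean distance over the 4 arrays, on quantile normalized values centred on each gene's mean, among 11395 genes. The nearest were the transcription factor Ets1 at a distance of 0.74 log2, the annexin Anxa1 at 0.81, the collagen chain Col1a2 at 1.18, the co-chaperone Bag3 at 1.26 and the membrane-repair protein Myof at 1.27. All 5 were higher with conditioned medium by less than Upk1b, with differences of 2.77 to 3.32 log2. With EGF alone Myof had 4.54 and 4.08 log2, under the level for dim probe sets. It passed the filter only through its level with conditioned medium. Ets1 (4.97 and 4.62 log2) and Bag3 (4.85 and 4.95 log2) were close to that level with EGF alone, so the sizes of these differences are uncertain. For the 5 other members that were higher with conditioned medium the nearest genes were much closer, and Cd81 was not searched. Next to Cd53 stood Twist1, a transcription factor of mesenchyme, at 0.12 log2. Nearest to Cd9 was the mitochondrial carrier Slc25a24 at 0.037, to Cd82 the mitotic activator Cdc20 at 0.022, to Cd63 the spindle protein Spag5 at 0.0092, and to Cd151 Adamtsl5 at 0.042. With 4 arrays in 2 conditions such a distance reflects mostly the size of the difference.

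Of 3 probe sets for other uroplakins, Upk1a, Upk2 and Upk3a, 0 had a mean over the 4 arrays that passed the filter on dim probe sets. Upk1a, the other uroplakin tetraspanin, had 3.09 and 2.999 log2 with conditioned medium, against 3.28 and 2.78 log2 with EGF alone, after quantile normalization, and its groups overlapped. Upk3a, a single-pass uroplakin, had 3.71 and 4.23 log2 with conditioned medium, against 4.15 and 4.46 log2 with EGF alone, and overlapped too. Upk2, the partner of Upk1a, had 5.68 and 5.06 log2 with conditioned medium, against 3.94 and 4.33 log2 with EGF alone, with no overlap, and lay above the level for dim probe sets in both arrays with conditioned medium. It was the 1 of these 3 that passed under all 3 scalings when the filter was left out. Of 15 epithelial and urothelial markers measured, 11 were too dim to be tested, Epcam, Krt5, Krt7, Krt8, Krt18 and Krt20 among them. Of the other 4, Krt19, a keratin, fell by 0.96 log2 (SE 0.09), and Cdh1, Krt14 and Grhl3 differed by 0.12 to 0.43 log2 without passing. The fall of Krt19 was lost without conditioned-medium replicate 2, EGF replicate 1 or EGF replicate 2, and with the replicate number as a block. The summed linear level of the 15 markers was 1009 and 1002 with conditioned medium and 1385 and 1292 with EGF alone. Krt19 alone made that sum lower with conditioned medium: the other 14 summed to 587.5 and 578 with conditioned medium and 538.1 and 499.4 with EGF alone. Of 5 measured mesothelial markers, another cell type known to make Upk1b, Wt1 and Bnc1 were too dim, Msln and Lrrn4 did not pass, and Krt19 fell as above. Of the 12 mesenchymal and pericyte markers, Cspg4, Rgs5, Dcn and Lum had a mean below the level for dim probe sets. The summed level of the 12 was 1670 and 1846 with conditioned medium and 542.4 and 537.2 with EGF alone. Of the 8 tested, 7 rose (8.53% of all genes tested), led by Col1a2 (2.95 ± 0.10 log2, SE) and Tagln (2.69 ± 0.20 log2, SE). That count was 2 to 4 when any 1 array was left out. Tagln averaged 4.65 log2 with EGF alone after quantile normalization, so it passed the filter through its level with conditioned medium. Among the untested, Rgs5 and Cspg4 were higher by 1.44 and 0.62 log2 without overlap, and Dcn and Lum differed by -0.25 and -0.17 log2. The part of any of these cell types in the level of Upk1b was not tested.

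Among the other tetraspanins, 2 of 17 tested genes fell and 0 rose, against 1.78% and 8.53% of all 11494 genes tested by their brightest probe set. By limma on quantile normalized values 3 had a higher and 6 a lower level at an unadjusted p under 0.05, and without EGF replicate 2 the call of Tspan2 made 1 that rose. With deposited values alone 5 genes were higher, and by limma at an adjusted p under 0.05 on quantile normalized values alone 3 were higher and 6 lower, against 15.2% and 13.3% of all genes tested. Prph2, the disc rim protein peripherin 2, had a deposited level of 10.22 and 9.93 log2 with conditioned medium, against 10.93 and 11.17 log2 with EGF alone. It fell by 1.29 log2 (SE 0.08, limma adjusted p = 5.98e-06). Rom1, its partner in outer segment discs, had 8.99 and 8.70 log2 with conditioned medium, against 10.04 and 9.86 log2 with EGF alone, as deposited. It fell by 1.45 log2 (SE 0.11, limma adjusted p = 2.40e-05). Both were lower in both arrays with conditioned medium and kept their call with any 1 array left out. Most photoreceptor markers moved with them: of 6 tested, 4 fell (1.78% of all genes tested did). Rcvrn was lower by 1.45 log2 but did not pass as deposited. Gnat1 lay near the level for dim probe sets, at 5.22 and 4.74 log2 with conditioned medium, against 5.17 and 4.79 log2 with EGF alone, after quantile normalization. It differed by 0.003 log2 on that scale, with overlap, and by 0.80 log2 as deposited, without overlap. It did not pass. The summed level of the 7 measured was 1614 and 1673 with conditioned medium and 5616 and 5569 with EGF alone.

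The remaining 15 tested tetraspanins, each by its brightest probe set, had differences between -0.48 and 0.46 log2. The median of all 17 was -0.18 log2, against 0.00 log2 for all genes tested by their brightest probe set. As deposited that median was 0.28 log2, against 0.43 log2 for all probe sets tested. None of the 15 passed under all 3 scalings. The genes named next were picked after their values were seen. On quantile normalized values alone Tspan15 (0.42 ± 0.08 log2, SE), a partner of the protease Adam10, Tspan6 (0.27 ± 0.07) and Tspan2 (0.46 ± 0.14), a tetraspanin of oligodendrocytes, were higher. Lower on that scale, besides Prph2 and Rom1, were Tspan7 (-0.46 ± 0.07), a tetraspanin of neurons, Tspan17 (-0.44 ± 0.10) and Tspan5 (-0.38 ± 0.10), which like Tspan15 guide Adam10, and Tspan1 (-0.48 ± 0.13). Deposited values gave Tspan7, Tspan17 and Tspan5 differences of -0.15 to -0.03 log2, and Tspan1 a difference of 0.01 log2. The dimmer tested Tspan5 probe sets differed by -0.61 log2, which passed on quantile normalized values, and by -0.64 log2, which did not. As deposited they differed by -0.17 and 0.09 log2. Tspan12, part of the receptor complex for Norrin in retinal vessels, differed by -0.06 ± 0.09 log2 (SE) and its groups overlapped. Several probe sets of 1 gene did not always point the same way: for Tspan33 the brightest differed by -0.23 log2 and the others by 0.53 and 0.74 log2. None of these passed on quantile normalized values. With EGF alone the probe set at 0.53 log2 averaged 4.73 log2, under the level for dim probe sets. The one at 0.74 log2 had 5.25 and 4.46 log2, close to that level. Too dim to be tested were Cd37, Tspan8, Tspan32 and Upk1a.

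**Figure D3:**
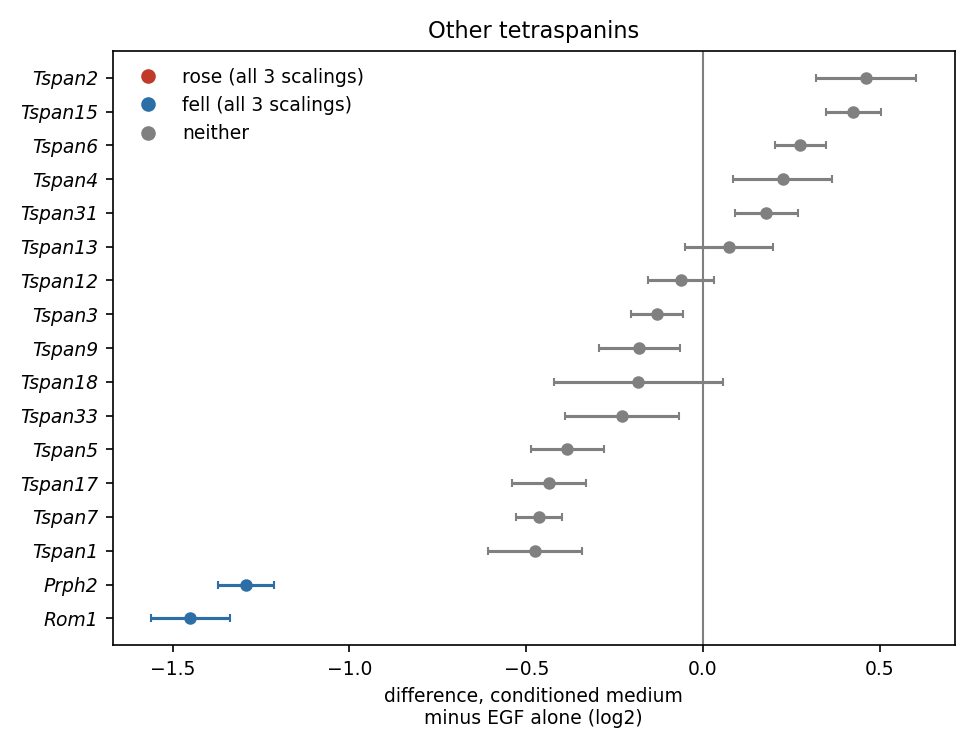
Quantile normalized difference between EGF plus conditioned medium and EGF alone (log2) for 17 tetraspanins outside the 7, each by its brightest probe set, with limma's SE as bars. Blue points fell under all 3 scalings and grey points did neither. Prph2 and Rom1 stand apart at -1.29 and -1.45 log2, and 0 genes rose.

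Of the proteins that tetraspanins bind, 6 of 12 tested rose and 0 fell (8.53% and 1.78% of all genes tested), with a median of 0.53 log2. At an unadjusted p under 0.05 in limma, 0 were lower on quantile normalized values. Timp1, a metalloprotease inhibitor that binds Cd63, had a deposited level of 10.11 and 9.87 log2 with conditioned medium, against 7.70 and 7.82 log2 with EGF alone. It rose by 1.87 log2 (SE 0.09) or 3.64-fold (limma adjusted p = 1.49e-06). Itgb1, the integrin chain shared by the receptors that Cd151 and Cd9 bind, rose by 0.99 log2 (SE 0.08, limma adjusted p = 3.74e-05), and its other probe set by 1.31 log2. Its partner Itga6 rose by 0.74 log2 (SE 0.15) in its brightest probe set, while Itga3 differed by 0.30 log2 (SE 0.16) and did not pass. The other Itga6 probe sets were too dim to be tested. They differed by 0.16 and 0.03 log2 with overlap and by 1.01 log2 without. Ptgfrn, an immunoglobulin protein that binds Cd9 and Cd81, rose by 0.82 log2 (SE 0.12), whereas its relative Igsf8 differed by -0.13 log2 (SE 0.10) without passing. The sheddases Adam17 and Adam10 rose by 0.58 and 0.68 log2 (SE 0.09 and 0.14). Without an intensity trend in the fit, Itga6, Adam17 and Adam10 did not pass. Itga6 also lost its call with any 1 array left out, and Adam10 with any but EGF replicate 1 left out. Egfr, the receptor of the EGF present in both media, differed by 0.31 log2 (SE 0.10) in its brightest probe set, which did not pass, and rose by 0.83 log2 (SE 0.18) in another. Hbegf, the EGF-family ligand that Cd9 binds, differed by 0.34 log2 (SE 0.21) and did not pass. The count of 6 was 3 without conditioned-medium replicate 1, conditioned-medium replicate 2 or EGF replicate 2, with Timp1 and Itgb1 past the threshold each time.

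Of 15 tested genes of vesicle release, a process that Cd63, Cd9 and Cd81 accompany, 0 rose and 1 fell, where 8.53% and 1.78% of all genes tested did, with a median of 0.13 log2. By limma on quantile normalized values 4 were higher and 2 lower at an unadjusted p under 0.05. Smpd3, the neutral sphingomyelinase that makes ceramide for vesicle budding, fell by 0.91 log2 (SE 0.10, limma adjusted p = 1.86e-04), and its call was lost with any 1 array left out and with the replicate number as a block. Lamp2, a lysosomal membrane protein that shares its compartment with Cd63, differed by 0.51 log2 (SE 0.07) in its brightest probe set, which passed on deposited and quantile normalized values but not with median-centred arrays, and its other probe set rose by 0.57 log2. The cargo adaptor Sdcbp differed by 0.03 ± 0.06 log2 and Tsg101, a subunit of the sorting complex, by -0.11 ± 0.07 log2 (SE). Neither passed on quantile normalized values. With deposited values alone 9 of the 15 genes were higher, and with median-centred arrays alone 5 were lower.

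**Figure D4:**
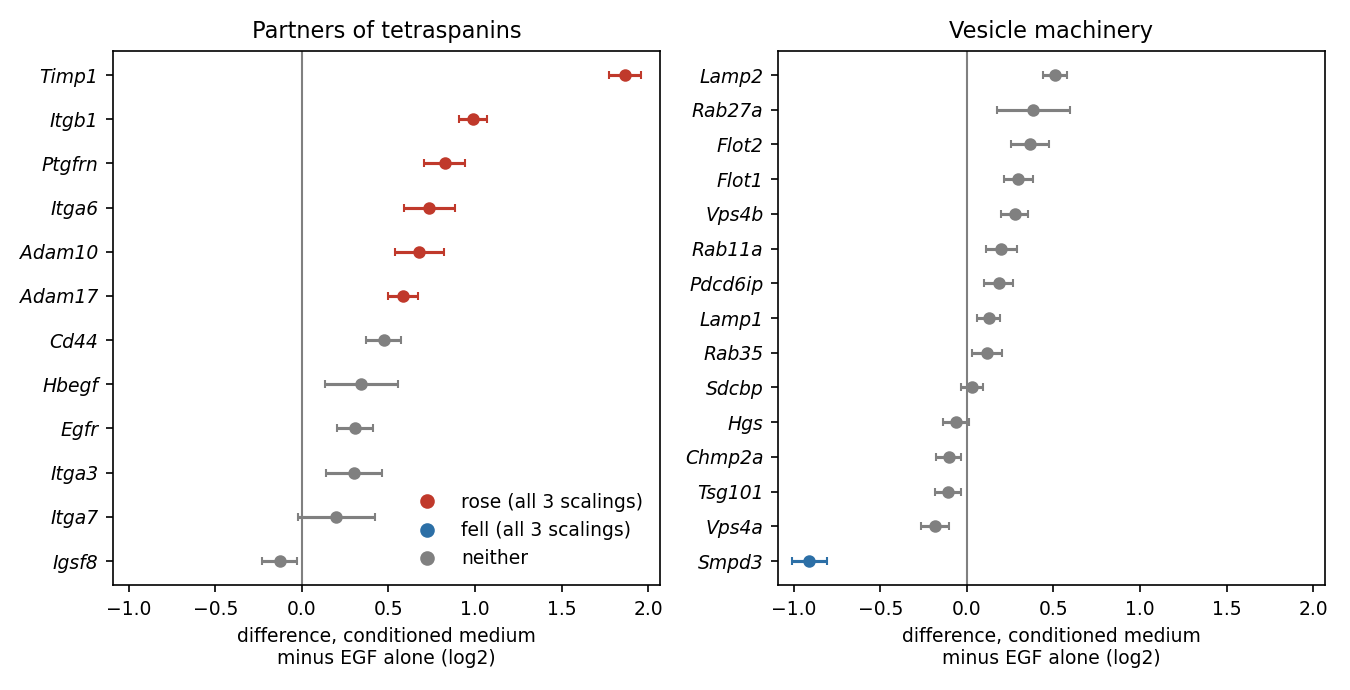
Quantile normalized difference between EGF plus conditioned medium and EGF alone (log2) for proteins that bind tetraspanins and for genes of vesicle release, each by its brightest probe set, with limma's SE as bars. Red points rose and blue points fell under all 3 scalings, grey points did neither. Timp1 lies furthest right at 1.87 log2 and Smpd3 furthest left at -0.91 log2.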

How the data were processed

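Total RNA of 4 cultures was labelled and hybridised to Affymetrix rat 3' arrays. The authors deposited RMA log2 values made in GenePattern, per the series' design text and the submitters' processing notes; version and normalization options are not given in the sources used here. Probe sets were named through the platform annotation: 20832 had 1 symbol, 436 several and 9831 none. The values were quantile normalized and fitted with limma 3.58.1 in R 4.3.3 (intensity trend, no block, two-sided, Benjamini-Hochberg over 21717 probe sets). Control probe sets (57) and probe sets with a mean at or under 4.77 log2 (percentile 30) were left out. Since this mean covers both conditions, a gene bright in either could pass on that condition alone. With 2 arrays a group, an exact two-sided permutation test of 1 value cannot go below p = 0.333, so calls rest on variances pooled across probe sets. The number of arrays limits the precision. A gene with several probe sets was counted by its brightest. Members, lists and tests were chosen with earlier results of these data known. Genes were named by rule: all 7 members, other tetraspanins past the threshold plus Upk1a, Prph2, Rom1, Cd37 and Tspan12, up to 4 partners or vesicle genes per direction by p, and up to 2 markers per direction. Others were named after their values were seen.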

Additional observations from a re-analysis of the deposited data

How the results depend on the processing

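The differences of Upk1b, Cd9, Cd63, Cd82, Cd151 and Cd53 kept their sign under every alternative run, but their size moved with the scaling. As deposited they were 4.62 (Upk1b), 1.23 (Cd9), 0.89 (Cd63), 1.30 (Cd82), 1.13 (Cd151) and 2.06 log2 (Cd53), and with median-centred arrays 0.67 (Cd9), 0.32 (Cd63), 0.73 (Cd82) and 0.57 log2 (Cd151), against 0.29 and -0.28 log2 for Cd81. With any 1 array left out, the ranges were 3.76 to 4.32 log2 for Upk1b, 0.82 to 1.00 for Cd9, 0.57 to 0.59 for Cd63, -0.11 to 0.04 for Cd81, 0.85 to 0.93 for Cd82, 0.68 to 0.93 for Cd151 and 1.25 to 1.46 for Cd53. After quantile normalization 2738 probe sets were higher and 2808 lower, 49.4% of calls being higher. The share came to 96.2% (8318 higher, 328 lower) with deposited values and 24.7% (1825 higher, 5568 lower) with median-centred arrays. Without an intensity trend 1638 were higher and 1626 lower, with only the brightest probe set of each gene 1888 were higher and 1671 lower, and with 1 array left out 639 to 1531 were higher and 650 to 1122 lower. Fewer probe sets or arrays enter the last 2 of these. On a single scaling, 5 of the other tetraspanins were higher with deposited values and 8 were lower with median-centred arrays. The Tspan1 difference reversed to 0.0106 log2 as deposited. Of the partners, 11 were higher as deposited and 1 was lower with median-centred arrays, each on that scaling alone. Under all 3 scalings 3 rose without an intensity trend. Of the vesicle genes 9 were higher as deposited, 5 were lower with median-centred arrays, 0 fell without an intensity trend, and 0 fell with any 1 array left out. Without the filter 1 uroplakin partner, Upk2, rose. For the remaining changes the cause was not tested.

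Same-numbered arrays deviated from their group means with a correlation of -0.04 across probe sets after quantile normalization and -0.12 as deposited, over 2 pairs. Each pool of embryos gave both conditions, but the labels do not say that the replicate number marks the pool, so whether the numbers pair the samples is not settled. With the replicate number as a block, 2611 probe sets were higher and 2632 lower, 1469 rose and 45 fell under all 3 scalings, against 1579 and 328 without it, and Cd63, Smpd3 and Krt19 did not pass, which left 0 vesicle genes that fell. A crossed block, added after seeing the data, gave 3059 higher and 3101 lower probe sets and 1 vesicle gene that rose.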

Other observations

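Cd9 and Cd81 are also abundant on glia, and markers of Muller glia and astrocytes divided in these arrays. Of 9 tested, 4 rose and 0 fell (8.53% and 1.78% of all genes tested), but dropping the first conditioned-medium array left 2 and dropping the second left 1. Clu, the secreted chaperone clusterin, rose by 1.86 log2 and Slc1a3, a glutamate transporter, by 0.65 log2, while Rlbp1, the retinaldehyde-binding protein of mature Muller glia, differed by -0.70 log2 and passed on quantile normalized but not on deposited values. Of 9 progenitor markers tested 4 rose (2 after dropping the first conditioned-medium array) and 0 fell (again against 8.53% and 1.78%), with Ccnd1, cyclin D1, at 1.35 log2 and Nes, nestin, at 0.94 log2. The progenitor markers did not all go that way. Rax differed by -0.24 log2 and passed as lower on quantile normalized and median-centred values but not as deposited. Pax6, Sox2, Six3 and Lhx2 differed by -0.15, 0.07, 0.04 and 0.54 log2 and did not pass under all 3 scalings. Of 7 endothelial markers tested 2 rose and 0 fell, beside the same background, Flt1, a VEGF receptor, by 2.09 log2 and the junction protein Esam by 0.72 log2. Flt1 passed the filter on dim probe sets only through its level with conditioned medium. Dropping the first conditioned-medium array took the endothelial count to 0, and dropping any of the other arrays took it to 1.

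The deposited values lie on a coarse grid. Each array holds 2738 to 3291 distinct values for 31099 probe sets, and 3.68% to 4.42% of probe sets are alone on their value. The steps are wide where the signal is dim. The value of Upk1b was shared by 197 and 287 other probe sets in the EGF arrays, with neighbouring values 0.053 to 0.057 log2 away, and that of Cd53 by 268 and 183. In the arrays with conditioned medium the Upk1b value was shared by 6 and 15 other probe sets, with steps of 0.0025 to 0.0029 log2. The values of Cd63 were shared by 0 other probe sets. All these steps are smaller than the differences of the 6 genes that were higher with conditioned medium. How the grid arose was not tested.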
